A study of Mus musculus with 18 samples.

Results

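The 9 genes described here are 8 CC chemokine genes, Ccl2, Ccl7, Ccl12, Ccl8, Ccl3, Ccl4, Ccl6 and Ccl9, and the receptor gene Ccr2, which act in the recruitment of monocytes and other effector leukocytes. They were taken by gene symbol from the table of raw counts, and 9 of its 54232 genes are members. The study profiled the lacrimal gland (LG), the exocrine gland that supplies aqueous tears, to follow chronic inflammation in the Sjögren's syndrome model strain NOD.B10Sn-H2b/J, called NOD.H-2b here, against BALB/cJ (BALB/c) controls. All mice were male and untreated, at 2, 4 or 6 months of age (2M, 4M and 6M), which gives 6 groups of 3 mice. Each of the 18 samples was 1 LG from 1 mouse, sequenced as bulk RNA after ribosomal RNA was depleted. NOD.H-2b mice carry the H2b haplotype in place of the NOD major histocompatibility region, and BALB/c is a separate inbred strain rather than a congenic partner, so that every background difference between the strains enters a strain difference.

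CC chemokines are small secreted proteins that bind G protein-coupled receptors on leukocytes and guide them out of the blood and through tissue. Ccr2 is carried by inflammatory monocytes and is bound by the products of Ccl2, Ccl7 and Ccl12, while those of Ccl3, Ccl6 and Ccl9 act through Ccr1, and mouse Ccl8 through Ccr8. In autoimmune dacryoadenitis, lymphocytes and macrophages gather around the ducts and vessels of the gland, and chemokines released by epithelial, stromal and immune cells take part in their recruitment.

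The counts of the BALB/c mice, in the order of replicates 1, 2 and 3 used throughout, summed to 57094775, 60324594 and 63309172 at 2M, 59018657, 54255982 and 67138830 at 4M and 103936830, 52244088 and 50032070 at 6M. Those of the NOD.H-2b mice summed to 56840654, 62057758 and 59280039 at 2M, 60135132, 62623939 and 49480781 at 4M and 58993318, 51117182 and 50470457 at 6M. BALB/c 6M replicate 1 was the deepest library, and all others lay between 49480781 and 67138830 counts. Levels are given as CPM, counts scaled to the size of their library by its total and its TMM factor over the 18 mice. As a check of the tissue, 9 lacrimal epithelium markers, of which Scgb2b7 had the most counts, summed to between 45611 and 84440 CPM per mouse. Adjacent tissue markers of salivary gland, muscle and fat (9 genes, most counts on Amy1) summed to between 0.788 and 3.53 CPM. Libraries also stood apart within their group by cell type markers: NOD.H-2b 2M replicate 1 had 1.46 CPM of B cell markers against 26.1 and 11.0, and BALB/c 4M replicate 3 had 7.29 CPM of T and NK cell markers against 1.77 and 1.30 and 176 CPM of macrophage markers against 109 and 113. NOD.H-2b 4M replicate 1 had 105 CPM of T and NK cell markers against 63.1 and 61.4, 294 CPM of B cell markers against 155 and 132, and 34.8 CPM of dendritic cell markers against 19.7 and 20.3, and NOD.H-2b 6M replicate 1 had 401 CPM of B cell markers against 202 and 263.

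At 2M, 4M and 6M all 9 genes were higher in LGs from NOD.H-2b mice than in those from BALB/c mice, and for none of them did the 3 NOD.H-2b mice overlap the 3 controls of their age. The share of all genes tested that did not overlap was not counted, so that here and below this is a description and no support. The fold changes ranged from 1.82 for Ccl6 at 4M to 16.3 for Ccl12 at 4M, where the BALB/c mice had 5, 1 and 7 counts of Ccl12. With edgeR's quasi-likelihood test and Benjamini-Hochberg adjustment, a gene was called where its adjusted p was under 0.05 and it differed 2-fold or more. At 2M, 9 of 9 were called higher in NOD.H-2b, where 12.0% of the 17200 genes tested were called higher. At 4M, 8 of 9 were called higher, against 15.6% of 17722 genes, and Ccl6 stayed under the 2-fold threshold. At 6M, 9 of 9 were called higher, against 18.8% of 17750 genes. In a fit of all 18 mice that averages the 3 ages, 9 of 9 were called higher, against 17.6% of 19117 genes. Ccl2, Ccl7, Ccl12, Ccl3 and Ccl4 had at most 8 counts in any BALB/c mouse of 2M, and too few in BALB/c of each age to be tested within that strain. In each of these comparisons the 5 genes therefore passed the filter on low counts through the NOD.H-2b mice alone, and a gene that passes in this way has to differ, so that their calls add no support. The same holds for the adjusted p of their strain differences given below. Of the other 4 genes, Ccl8, Ccl6, Ccl9 and Ccr2, which had enough counts in both strains, 4 were called at 2M, 3 at 4M and 4 at 6M. As a description and no support, since they include these 5 genes, the median log2 fold changes of the 9 were 3.04, 2.69 and 2.69 at the 3 ages and 2.79 over all ages, and those of all genes tested 0.0099, 0.0003, -0.0041 and -0.0155. Without NOD.H-2b 4M replicate 1, 8 of 9 were called at 4M, without BALB/c 4M replicate 3, 9 of 9, and without replicate 1 of BALB/c or of NOD.H-2b at 6M, 8 of 9 at that age, as the values of Ccl6 and Ccl9 show. In bulk RNA, fewer cells of a type and less RNA per cell cannot be told apart.

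**Figure D1:**
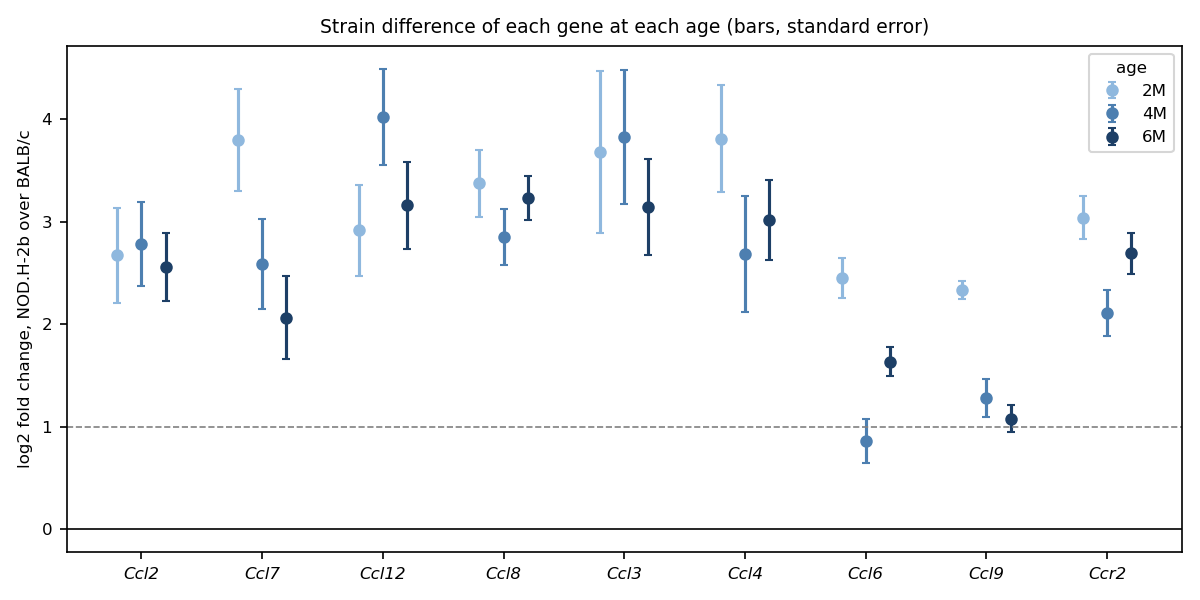
Log2 fold change of NOD.H-2b over BALB/c (vertical axis) for each of the 9 genes at 2M, 4M and 6M, with standard error bars (3 mice per group) and a dashed line at the 2-fold threshold. All 27 points lie above 0, and the lowest are Ccl6 at 4M (0.87) and Ccl9 at 6M (1.08).

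Ccl2 (ENSMUSG00000035385) encodes the main monocyte-attracting ligand of Ccr2. At 2M, Ccl2 measured 0.115, 0.144 and 0.0353 CPM in the BALB/c mice and 0.574, 0.731 and 0.534 CPM in the NOD.H-2b mice. At 4M, Ccl2 measured 0.276, 0.122 and 0.164 CPM in the BALB/c mice and 1.29, 0.880 and 1.76 CPM in the NOD.H-2b mice. At 6M, Ccl2 measured 0.182, 0.213 and 0.117 CPM in the BALB/c mice and 1.02, 1.03 and 0.964 CPM in the NOD.H-2b mice. Every NOD.H-2b mouse was above every BALB/c mouse of its age, with the lowest level in BALB/c 2M replicate 3 and the highest in NOD.H-2b 4M replicate 3. Ccl2 had log2 fold changes of 2.67 ± 0.47 (adjusted p = 0.000819) at 2M, 2.79 ± 0.41 (adjusted p = 0.000481) at 4M and 2.56 ± 0.33 (adjusted p = 0.000125) at 6M in edgeR's quasi-likelihood test. The 3 values lay within each other's standard errors. BALB/c mice had at most 8, 15 and 17 counts of Ccl2 at 2M, 4M and 6M, and the adjusted p are a description and no support.

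Ccl7 (ENSMUSG00000035373) encodes another ligand of Ccr2, which also acts in the release of monocytes from bone marrow. At 2M, Ccl7 measured 0.0764, 0.0359 and 0.0176 CPM in the BALB/c mice and 0.558, 0.670 and 0.582 CPM in the NOD.H-2b mice. At 4M, Ccl7 measured 0.111, 0.183 and 0.134 CPM in the BALB/c mice and 0.953, 0.510 and 1.12 CPM in the NOD.H-2b mice. At 6M, Ccl7 measured 0.236, 0.106 and 0.117 CPM in the BALB/c mice and 0.836, 0.629 and 0.561 CPM in the NOD.H-2b mice. The strains did not overlap at any age, although the 3 BALB/c mice of 2M had only 4, 2 and 1 counts, and BALB/c 6M replicate 1 was the highest of the controls. Ccl7 had log2 fold changes of 3.80 ± 0.50 (adjusted p = 0.000116) at 2M, 2.59 ± 0.44 (adjusted p = 0.00104) at 4M and 2.07 ± 0.41 (adjusted p = 0.00175) at 6M in edgeR's quasi-likelihood test. Without BALB/c 2M replicate 1, the log2 fold change at 2M was 4.43 (edgeR adjusted p = 0.000464).

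Ccl12 (ENSMUSG00000035352) encodes a ligand of Ccr2 in mice that is closely related to Ccl2. At 2M, Ccl12 measured 0.0955, 0.0538 and 0.0529 CPM in the BALB/c mice and 0.525, 0.533 and 0.456 CPM in the NOD.H-2b mice. At 4M, Ccl12 measured 0.0921, 0.0203 and 0.104 CPM in the BALB/c mice and 1.01, 1.11 and 1.64 CPM in the NOD.H-2b mice. At 6M, Ccl12 measured 0.182, 0.106 and 0.140 CPM in the BALB/c mice and 1.95, 0.804 and 1.17 CPM in the NOD.H-2b mice. NOD.H-2b mice again lay above all BALB/c mice of their age, and within NOD.H-2b the 3 mice of 2M lay below all mice of 4M and 6M. The widest spread was in NOD.H-2b at 6M, where replicate 1 had 149 counts and replicate 2 had 46. Ccl12 had log2 fold changes of 2.92 ± 0.44 (adjusted p = 0.000326) at 2M, 4.02 ± 0.47 (adjusted p = 0.000132) at 4M and 3.16 ± 0.42 (adjusted p = 0.000161) at 6M in edgeR's quasi-likelihood test. BALB/c mice had at most 5, 7 and 17 counts of Ccl12 at these ages, and the adjusted p are a description and no support.

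Ccl8 (ENSMUSG00000009185) encodes a chemokine that in mice acts through Ccr8, a receptor of T cell subsets and some myeloid cells. At 2M, Ccl8 measured 1.97, 2.37 and 0.846 CPM in the BALB/c mice and 18.7, 18.5 and 14.9 CPM in the NOD.H-2b mice. At 4M, Ccl8 measured 2.84, 5.18 and 5.95 CPM in the BALB/c mice and 34.3, 36.2 and 30.2 CPM in the NOD.H-2b mice. At 6M, Ccl8 measured 3.18, 4.49 and 2.29 CPM in the BALB/c mice and 34.0, 29.1 and 28.4 CPM in the NOD.H-2b mice. The 2 strains were far apart, as the lowest NOD.H-2b mouse (14.9 CPM, 2M replicate 3) was above the highest BALB/c mouse of any age (5.95 CPM, 4M replicate 3). Ccl8 had log2 fold changes of 3.37 ± 0.33 (adjusted p = 0.000679) at 2M, 2.85 ± 0.27 (adjusted p = 0.000384) at 4M and 3.23 ± 0.21 (adjusted p = 5.75e-06) at 6M in edgeR's quasi-likelihood test.

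Ccl3 (ENSMUSG00000000982) encodes a ligand of Ccr1 released by activated macrophages and lymphocytes. At 2M, Ccl3 measured 0.0573, 0.0179 and 0 CPM in the BALB/c mice and 0.525, 0.289 and 0.173 CPM in the NOD.H-2b mice. At 4M, Ccl3 measured 0, 0.0203 and 0.0746 CPM in the BALB/c mice and 0.575, 0.510 and 0.460 CPM in the NOD.H-2b mice. At 6M, Ccl3 measured 0.0859, 0.0213 and 0.0468 CPM in the BALB/c mice and 0.496, 0.507 and 0.543 CPM in the NOD.H-2b mice. NOD.H-2b mice were higher without overlap, but BALB/c levels rest on few counts, with 3, 1 and 0 at 2M, 0, 1 and 5 at 4M and 8, 1 and 2 at 6M. At 2M, the ratio of the summed counts, 62 against 4 and scaled to library size, was 13.4 with a 95% counting interval of 4.99 to 50.8, which covers counting error only. Ccl3 had log2 fold changes of 3.68 ± 0.79 (adjusted p = 0.00309) at 2M, 3.83 ± 0.65 (adjusted p = 0.00114) at 4M and 3.15 ± 0.47 (adjusted p = 0.000319) at 6M in edgeR's quasi-likelihood test. Its size depended on single control mice: the log2 fold change was 4.94 (adjusted p = 0.00572) at 2M without BALB/c 2M replicate 1, 5.45 (adjusted p = 0.000793) at 4M without BALB/c 4M replicate 3, and 3.89 (adjusted p = 0.000896) at 6M without BALB/c 6M replicate 1.

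Ccl4 (ENSMUSG00000018930) encodes a chemokine closely related to Ccl3 that activated macrophages and lymphocytes release. At 2M, Ccl4 measured 0.0382, 0.0359 and 0.0176 CPM in the BALB/c mice and 0.426, 0.487 and 0.409 CPM in the NOD.H-2b mice. At 4M, Ccl4 measured 0.0553, 0.0203 and 0.179 CPM in the BALB/c mice and 0.620, 0.633 and 0.520 CPM in the NOD.H-2b mice. At 6M, Ccl4 measured 0.0751, 0.0852 and 0.0935 CPM in the BALB/c mice and 0.810, 0.559 and 0.631 CPM in the NOD.H-2b mice. All NOD.H-2b mice were above the controls, among which BALB/c 4M replicate 3 was the highest with 12 counts. At 2M, 84 counts in NOD.H-2b stood against 5 in BALB/c, a scaled ratio of 14.5 with a 95% counting interval of 5.99 to 46.0. Ccl4 had log2 fold changes of 3.81 ± 0.52 (adjusted p = 0.000152) at 2M, 2.69 ± 0.56 (adjusted p = 0.0035) at 4M and 3.02 ± 0.39 (adjusted p = 0.000121) at 6M in edgeR's quasi-likelihood test. Without BALB/c 4M replicate 3, the log2 fold change at 4M was 3.87 (adjusted p = 0.000968).

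Ccl6 (ENSMUSG00000018927) encodes a chemokine of myeloid cells that acts through Ccr1. At 2M, Ccl6 measured 0.726, 0.987 and 0.688 CPM in the BALB/c mice and 4.90, 3.77 and 4.12 CPM in the NOD.H-2b mice. At 4M, Ccl6 measured 1.97, 2.11 and 3.31 CPM in the BALB/c mice and 4.21, 4.94 and 4.32 CPM in the NOD.H-2b mice. At 6M, Ccl6 measured 1.86, 1.75 and 1.71 CPM in the BALB/c mice and 5.42, 5.24 and 5.49 CPM in the NOD.H-2b mice. BALB/c levels were nearest to those of NOD.H-2b at 4M, where BALB/c 4M replicate 3 (3.31 CPM) came close to the lowest NOD.H-2b mouse (4.21 CPM), but the groups did not overlap. Ccl6 had log2 fold changes of 2.45 ± 0.20 (adjusted p = 2.86e-06) at 2M, 0.87 ± 0.21 (adjusted p = 0.00863) at 4M and 1.63 ± 0.14 (adjusted p = 8.74e-06) at 6M in edgeR's quasi-likelihood test. The difference at 4M passed the adjusted p but not the 2-fold threshold, and without BALB/c 4M replicate 3 it passed both, with a log2 fold change of 1.14 (adjusted p = 0.00133).

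Ccl9 (ENSMUSG00000019122) encodes another Ccr1 ligand of myeloid cells. At 2M, Ccl9 measured 9.11, 9.10 and 10.1 CPM in the BALB/c mice and 46.0, 41.3 and 51.3 CPM in the NOD.H-2b mice. At 4M, Ccl9 measured 10.8, 16.5 and 11.1 CPM in the BALB/c mice and 26.9, 30.2 and 35.7 CPM in the NOD.H-2b mice. At 6M, Ccl9 measured 12.2, 15.4 and 16.3 CPM in the BALB/c mice and 33.7, 30.3 and 26.0 CPM in the NOD.H-2b mice. The groups never overlapped, and the order of ages was opposite in the strains: the 3 NOD.H-2b mice of 2M were above all older NOD.H-2b mice, and the 3 BALB/c mice of 2M below all older BALB/c mice. Ccl9 had log2 fold changes of 2.34 ± 0.09 (adjusted p = 6.33e-09) at 2M, 1.28 ± 0.19 (adjusted p = 0.00119) at 4M and 1.08 ± 0.13 (adjusted p = 8.17e-05) at 6M in edgeR's quasi-likelihood test. At 6M the value lay near the 2-fold threshold and fell under it without BALB/c 6M replicate 1 (0.96, adjusted p = 0.000304) or without NOD.H-2b 6M replicate 1 (0.999, adjusted p = 0.000272).

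Ccr2 (ENSMUSG00000049103), the only receptor among the 9 genes, encodes the receptor by which monocytes leave bone marrow and enter inflamed tissue. At 2M, Ccr2 measured 2.73, 2.48 and 2.06 CPM in the BALB/c mice and 15.9, 24.8 and 17.2 CPM in the NOD.H-2b mice. At 4M, Ccr2 measured 3.83, 5.50 and 7.34 CPM in the BALB/c mice and 23.9, 26.5 and 21.7 CPM in the NOD.H-2b mice. At 6M, Ccr2 measured 4.67, 4.22 and 2.88 CPM in the BALB/c mice and 29.9, 20.2 and 25.1 CPM in the NOD.H-2b mice. NOD.H-2b mice were far above the controls at each age, and the highest control was BALB/c 4M replicate 3. Ccr2 had log2 fold changes of 3.04 ± 0.21 (adjusted p = 2.99e-05) at 2M, 2.11 ± 0.22 (adjusted p = 0.000321) at 4M and 2.69 ± 0.20 (adjusted p = 9.29e-06) at 6M in edgeR's quasi-likelihood test. Of 6734 windows of 75 bases along Ccr2 exons, 78 (1.16%) also occur outside the gene, so that reads from those stretches cannot be assigned with certainty, while no such window of the 8 chemokine genes was shared with another gene.

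**Figure D2:**
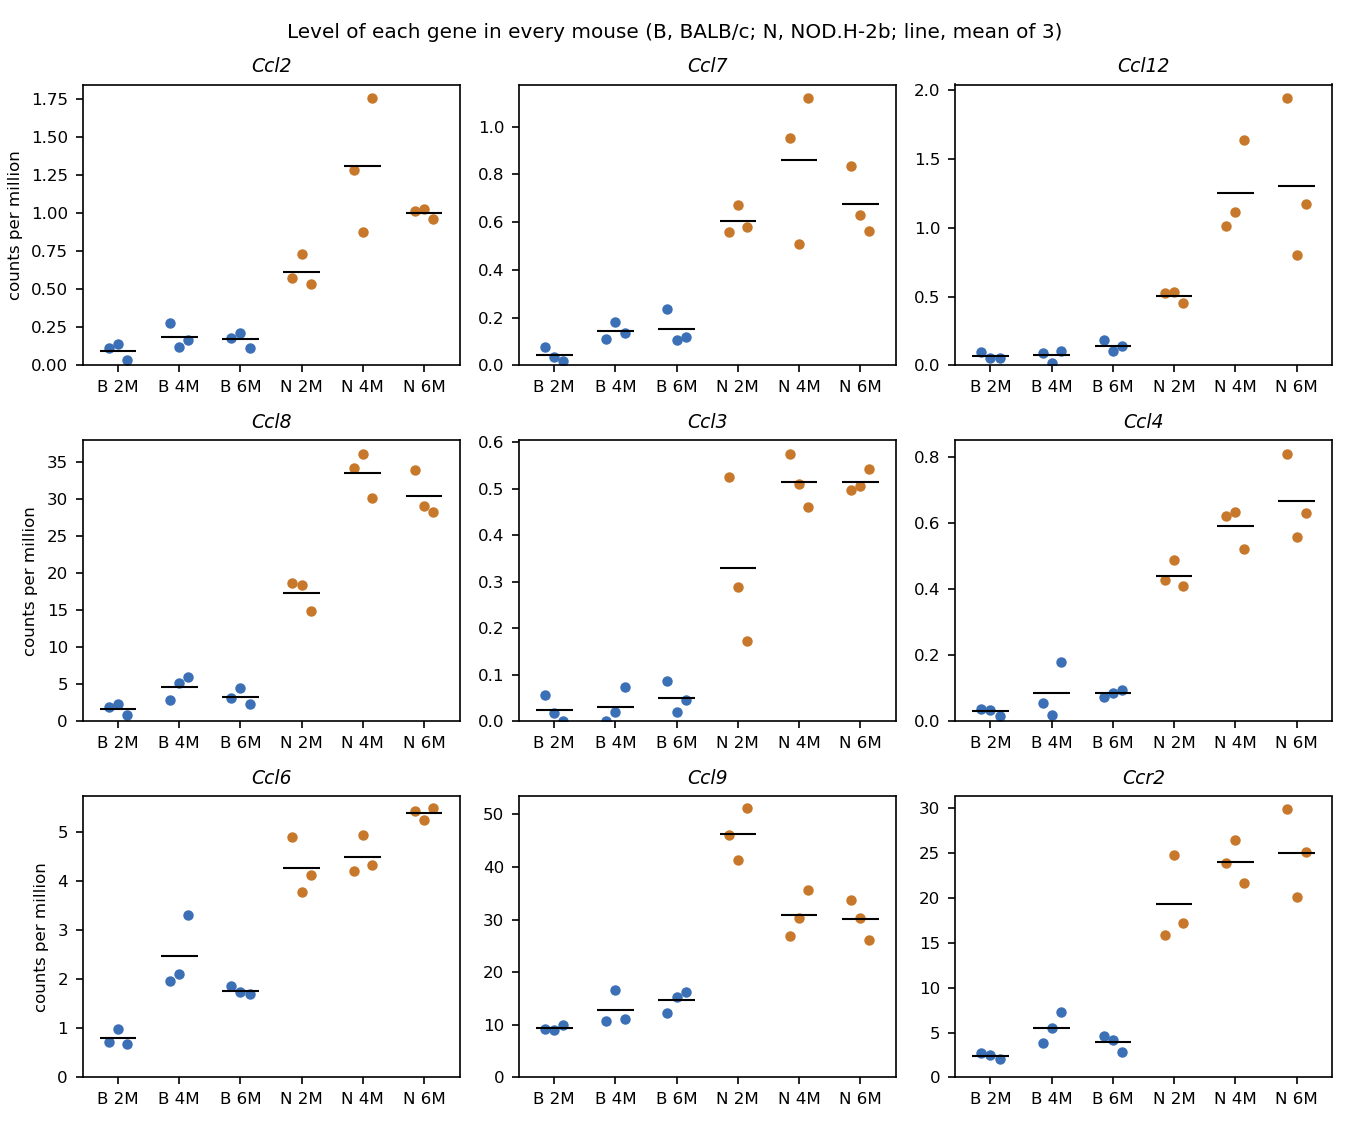
CPM (vertical axis, linear from 0, a scale of its own for each gene) of the 9 genes in every mouse, by strain (B, BALB/c; N, NOD.H-2b) and age, with a line at the mean of 3 mice. NOD.H-2b points lie above the BALB/c points of the same age in all 9 panels, and the ratio of the means is smallest for Ccl6 at 4M.

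Whether the strain difference itself changed with age was tested as the strain by age term in the fit of all 18 mice, called at an adjusted p under 0.05. From 2M to 4M it was called for 2 of 9 genes, against 1.67% of 19117 genes tested: Ccl6 (-1.55 ± 0.26, adjusted p = 0.00634) and Ccl9 (-1.02 ± 0.23, adjusted p = 0.0387) had a smaller strain difference at 4M. From 2M to 6M it was called for the same genes, Ccl6 (-0.81 ± 0.27, adjusted p = 0.0448) and Ccl9 (-1.25 ± 0.23, adjusted p = 0.00367), against 16.1% of all genes, a share the 2 of 9 does not stand out from. The median over the 9 genes was -0.89 from 2M to 4M and -0.52 from 2M to 6M, where all genes had medians of 0.0098 and -0.0305, a description and no support, since 5 of the 9 passed the filter through NOD.H-2b alone and rest on few counts in BALB/c. Among the 7 genes not called, the terms nearest to the threshold were those of Ccr2 from 2M to 4M (-0.89 ± 0.35, adjusted p = 0.211) and Ccl7 from 2M to 6M (-1.72 ± 0.67, adjusted p = 0.086). For Ccl6 from 2M to 4M and Ccl9 from 2M to 6M the call was kept in each of 18 fits that left out 1 mouse. That of Ccl9 from 2M to 4M was lost in 7 of 18, with adjusted p of 0.0619, 0.0685 and 0.0524 without BALB/c 2M replicates 1, 2 and 3, 0.0912 and 0.0873 without NOD.H-2b 2M replicates 1 and 3, and 0.103 and 0.057 without NOD.H-2b 4M replicates 1 and 2. That of Ccl6 from 2M to 6M was lost in 9 of 18, with 0.0775 and 0.084 without BALB/c 2M replicates 1 and 3, 0.115 and 0.0659 without NOD.H-2b 2M replicates 1 and 3, 0.0709 and 0.052 without BALB/c 6M replicates 1 and 2, and 0.0866, 0.063 and 0.0686 without NOD.H-2b 6M replicates 1, 2 and 3 (adjusted p, edgeR). With no filter on low counts these calls were lost too (adjusted p = 0.0558 for Ccl9 and 0.0633 for Ccl6), and that of Ccl6 also with DESeq2 size factors (adjusted p = 0.051).

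Ages were also compared within each strain. In BALB/c, 4 of the 9 genes (Ccl6, Ccl8, Ccl9 and Ccr2) had enough counts to be tested, and the 5 others were not. From 2M to 4M, Ccl6 (1.63 ± 0.26, adjusted p = 0.00186) and Ccr2 (1.21 ± 0.23, adjusted p = 0.00888) rose in BALB/c, 2 of the 4 tested against 2.07% of 16639 genes called higher. Ccl8 (1.44 ± 0.45, adjusted p = 0.11) and Ccl9 (0.44 ± 0.16, adjusted p = 0.125) did not pass, but without BALB/c 4M replicate 1 Ccl8 was called too, for 3 of the 4, as it was by DESeq2 and in 1 fit of all 18 mice. The call of Ccr2 was lost without BALB/c 2M replicate 2 (adjusted p = 0.0511) and, under 2-fold, without BALB/c 4M replicate 3 (0.95, adjusted p = 0.00806). From 2M to 6M, Ccl6 (1.14 ± 0.22, adjusted p = 0.0139) rose in BALB/c, 1 of 4 against 1.57% of 16579 genes, and Ccl9 (0.62 ± 0.11, adjusted p = 0.00896) passed the adjusted p only, and not without BALB/c 2M replicate 1 (adjusted p = 0.0522). That call of Ccl6 was lost without BALB/c 2M replicate 1 (adjusted p = 0.0613), 2M replicate 3 (0.0653) or 6M replicate 1 (0.0543). The median log2 fold change of the 4 genes was 1.32 from 2M to 4M, -0.50 from 4M to 6M and 0.82 from 2M to 6M, against 0.0046, -0.0028 and 0.0059 over all genes tested.

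In NOD.H-2b all 9 genes were tested between ages. From 2M to 4M, Ccl2 (1.08 ± 0.31, adjusted p = 0.0472) and Ccl12 (1.30 ± 0.28, adjusted p = 0.0197) rose, 2 of 9 against 5.97% of 17763 genes called higher. Under 2-fold, Ccl8 (0.95 ± 0.11, adjusted p = 0.00403) was higher and Ccl9 (-0.58 ± 0.11, adjusted p = 0.0155) lower at 4M, but Ccl9 no longer passed the adjusted p without NOD.H-2b 2M replicate 3 (adjusted p = 0.068) or 4M replicate 2 (0.0504). The call of Ccl2 was lost in 5 of 6 fits with 1 mouse left out, with adjusted p of 0.135, 0.0616 and 0.153 without 2M replicates 1, 2 and 3 and 0.0931 and 0.121 without 4M replicates 1 and 3. That of Ccl12 was lost without NOD.H-2b 2M replicate 1 (0.0557) or replicate 3 (0.0826). From 2M to 6M, Ccl12 (1.36 ± 0.34, adjusted p = 0.0124) rose, 1 of 9 against 10.9% of 18008 genes, a share that 1 of 9 does not stand out from. Ccl12 fell under 2-fold without NOD.H-2b 6M replicate 1 (0.95, adjusted p = 0.0466). Ccl8 (0.80 ± 0.11, adjusted p = 0.00109), Ccl2 (0.69 ± 0.24, adjusted p = 0.048) and Ccl9 (-0.64 ± 0.11, adjusted p = 0.00341) passed the adjusted p only, and Ccl9 was the gene that was lower at 6M. Ccl2 did not pass it in 5 of 6 fits with 1 mouse left out, with adjusted p of 0.122 and 0.128 without 2M replicates 1 and 3 and 0.104, 0.0955 and 0.0928 without 6M replicates 1, 2 and 3, nor with no filter (0.0966), in 1 fit of all 18 mice (0.0966) or by DESeq2 (0.0842). From 4M to 6M, edgeR's quasi-likelihood test called 0 of 4 genes in BALB/c, against 0.0361% of 16622 genes, and 0 of 9 in NOD.H-2b, against 0.00555% of 18026. At an unadjusted p under 0.05 there were 0 of 4 and 0 of 9, with lowest p of 0.0507 and 0.058 in edgeR, and DESeq2 called 0 and 0, with 1 and 0 at an unadjusted p under 0.05. The median over the 9 genes was 0.50 from 2M to 4M, 0.01 from 4M to 6M and 0.58 from 2M to 6M in NOD.H-2b, against 0.015, 0.0141 and -0.0113 over all genes.

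Levels of different genes were compared as CPM per kilobase of annotated exon, with the exons of all transcripts of a gene joined. The lengths of the transcripts present in the gland were not measured, so that the order of genes depends on the lengths used. By this scale Ccl8 had the highest mean level and Ccl9 the next in all 6 groups, and Ccl3 had the lowest. Ccl8 measured 3.38 ± 1.54 CPM per kb (SD, n = 3) in BALB/c 2M and 34.0 ± 4.10 in NOD.H-2b 2M, and Ccl9 measured 3.09 ± 0.179 and 15.2 ± 1.65. The mice overlapped between Ccl8 and Ccl9 in BALB/c at 2M and 6M, but not in the other groups. In NOD.H-2b at 2M, Ccr2 (2.85 CPM per kb) and Ccl6 (2.38) overlapped and came next, followed without overlap by Ccl12 (0.939). Ccl7 (0.753), Ccl4 (0.668), Ccl2 (0.539) and Ccl3 (0.429) followed, each overlapping its neighbor in that order. By 6M in NOD.H-2b, Ccl8 stood at 59.7 CPM per kb and Ccl9 at 9.86, and Ccr2 (3.71), Ccl6 (3.00) and Ccl12 (2.44) followed with overlapping neighbors. In BALB/c, Ccl6 was above Ccr2 at each age, with 0.446 against 0.359 CPM per kb at 2M, where the mice overlapped, and without overlap at 4M (1.37 and 0.822) and 6M (0.986 and 0.580). In NOD.H-2b the order of these genes was the opposite, with Ccr2 above Ccl6 at 4M without overlap (3.56 and 2.50) and with overlap at 2M and 6M. Before division by length (6760 bases for Ccr2, 1795 for Ccl6), Ccr2 was above Ccl6 in BALB/c too, with 2.42 against 0.800 CPM at 2M. The order in BALB/c therefore rests on these lengths. Ccl12, Ccl2, Ccl7, Ccl4 and Ccl3 had means between 0.0328 and 0.266 CPM per kb in the BALB/c groups.

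Across the 18 mice, the log2 CPM of each pair of the 9 genes had a Pearson's r between 0.80 and 0.98, as a description of mice that fall into non-overlapping strains. The highest was that of Ccl8 and Ccr2 (0.98), and the lowest that of Ccl12 and Ccl9 (0.80). With the mean of each group subtracted, r ranged from -0.47 (Ccl4 and Ccl9) to 0.68 (Ccl8 and Ccr2, n = 18). Ccl9 then had a negative r with 7 of the 8 other genes, and 0.0353 with Ccl7. For each of the 9 genes, the 3 most alike of 11439 other genes were taken by r of log2 CPM over the same 18 mice, with no test. For the Ccr2 ligands these were Nmi (0.975), Zc3h12d (0.972) and Parp9 (0.970) for Ccl2, Fbxw17 (0.973), Irf7 (0.969) and Trim14 (0.965) for Ccl7 and Zc3h12d (0.965), Cd4 (0.962) and Tpm4 (0.962) for Ccl12. Nmi, Parp9, Irf7 and Trim14 are interferon-induced genes, and Cd4 encodes the co-receptor of helper T cells. Ccl8 was most like Cd180 (0.992), Fgr (0.988) and C4b (0.988), of which Fgr encodes a kinase of myeloid cells and C4b a complement component. Ccl3 was most like Ganc (0.952), Ralgps2 (0.952) and Lpin2 (0.951), and Ccl4 most like Alox5ap (0.984), Fcer1g (0.981) and Adgre1 (0.981), where Fcer1g encodes a signaling adaptor of Fc receptors and Adgre1 the macrophage antigen F4/80. Ccl6 was most like Ms4a7 (0.963), Pltp (0.961) and Cpne2 (0.958), and Ccl9 most like Noxo1 (0.978), Pde1c (0.973) and Ascc2 (0.959). For Ccr2, Fcer1g (0.984) and Mpeg1 (0.984) were among them, and with group means subtracted the most alike were Rcbtb2 (0.901), Gsap (0.897) and Nfam1 (0.886).

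The 9 genes lie in 3 stretches of the genome (GENCODE annotation of GRCm38). On chromosome 11, Ccl2 (82035571 to 82037453), Ccl7 (82045712 to 82047525), Ccl12 (82101845 to 82103400) and Ccl8 (82115185 to 82116799) follow each other on the plus strand. Further along, Ccl9 (83572919 to 83578636), Ccl6 (83587882 to 83593087) and Ccl3 (83647844 to 83649355) lie on the minus strand and Ccl4 (83662584 to 83664683) on the plus strand. On chromosome 9, Ccr2 (124101950 to 124113557, plus strand) has Ccr1 and Ccr3 upstream. Ccl2 lies within Gm17268 on the opposite strand, which had 1 count over all mice, and Ccl6 within E230016K23Rik on the opposite strand, which had 325 counts, between 7 and 40 per mouse, and neither shares exon bases with them. Ccl11 (82057823 to 82062955), an eosinophil-attracting ligand gene placed between Ccl7 and Ccl12, was not called at any age, with log2 fold changes of -0.20 ± 0.11 (adjusted p = 0.188) at 2M, -0.51 ± 0.14 (adjusted p = 0.0131) at 4M and -0.39 ± 0.16 (adjusted p = 0.0686) at 6M in edgeR. At 2M, 4M and 6M its mean level was 5.37, 5.58 and 6.95 CPM in controls and 4.53, 3.91 and 5.15 CPM in NOD.H-2b mice, so that its difference was opposite in sign to that of the 4 genes around it. Ccl5, next to Ccl9, encodes a T cell-attracting chemokine and was called at each age, with 4.12 ± 0.42 (adjusted p = 0.000133) at 2M, 2.56 ± 0.60 (adjusted p = 0.0198) at 4M and 4.19 ± 0.22 (adjusted p = 5.02e-07) at 6M in edgeR. Its call at 4M was lost without BALB/c 4M replicate 1 (adjusted p = 0.0787), NOD.H-2b 4M replicate 1 (0.0719) or NOD.H-2b 4M replicate 3 (0.0504) and with no filter on low counts (0.0596), and without BALB/c 4M replicate 3 the log2 fold change was 3.40 (adjusted p = 0.000391).

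**Figure D3:**
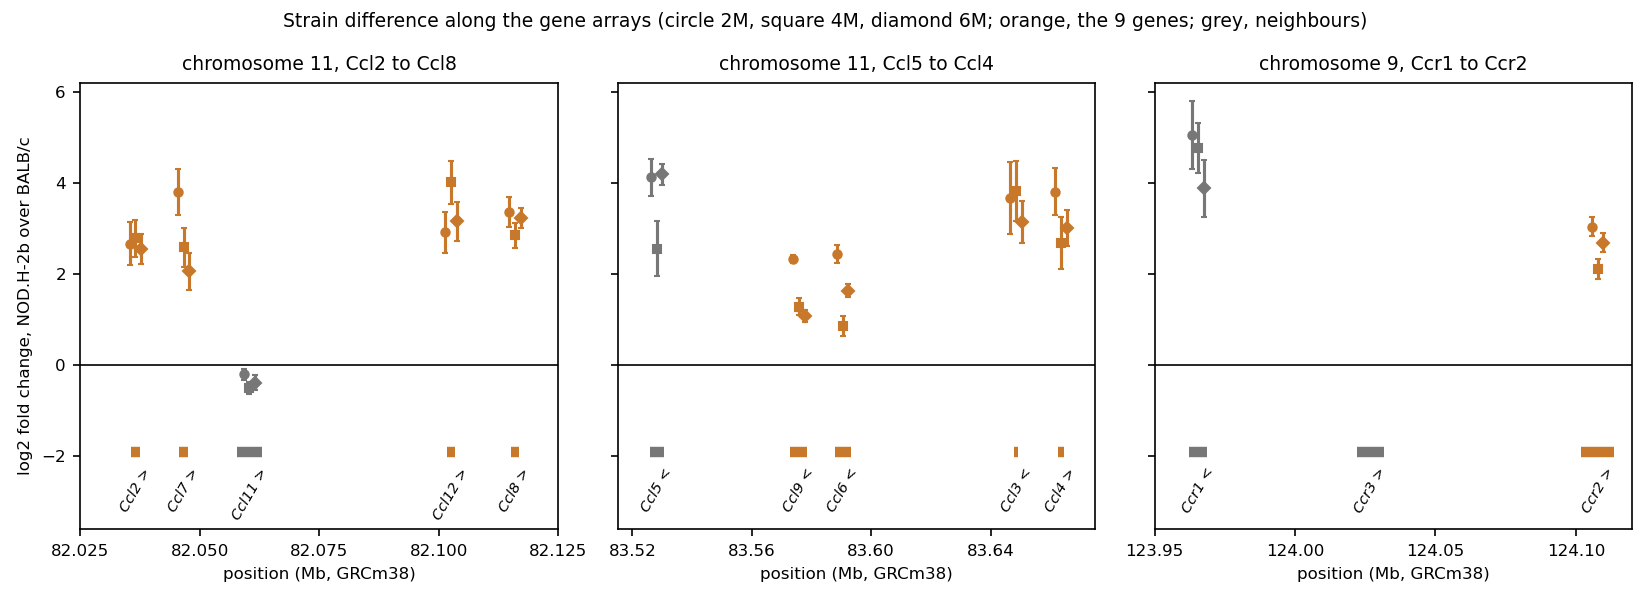
Log2 fold change of NOD.H-2b over BALB/c with standard error (vertical axis) at the position (horizontal axis, megabases of GRCm38) of each gene in the 3 stretches, for 2M (circles), 4M (squares) and 6M (diamonds), with gene bodies as bars and arrowheads for the strand. Orange marks the 9 genes and gray their neighbors, of which Ccl11 lies just below 0 between members of its stretch, Ccr3 was not tested, and Ccr1 at 2M rests on 2 counts in BALB/c.

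Since the 9 genes were higher together, the 250 bases upstream of their start sites in RefSeq (GRCm38.p6) were searched on both strands for 4 motifs: the κB consensus, the GAS element of STAT proteins (TTCNNNGAA), AP-1 (TGANTCA) and PU.1 (GAGGAAG). Sequences matched 6 of the 9 genes, Ccl12, Ccl8, Ccl3, Ccl6, Ccl9 and Ccr2, and entries for Ccl2, Ccl4 and Ccl7 were missing. Over 32851 promoters of this length, 7.25% held the κB consensus, 7.02% GAS, 6.75% AP-1 and 10.6% PU.1. Ccl8 held 1 PU.1 match, on the strand opposite to the gene, at chr11:82114944-82114950, 235 bases before its start. Ccl9 held 1 κB match at chr11:83578662-83578671, also on the opposite strand and 26 bases before its start, and 1 AP-1 match at chr11:83578683-83578689, 47 bases before it. No other match was found in the 6 windows, and GAS was found in 0 of 6. The sequences shown, with matches in capitals, are the windows of Ccl8 and Ccl9, the most abundant chemokine genes of the 9, and that of Ccl12, the neighbor of Ccl8, which held no match. They read in the direction of the gene, Ccl8 from chr11:82114935-82115184 (plus strand), Ccl9 from chr11:83578637-83578886 (minus strand) and Ccl12 from chr11:82101595-82101844 (plus strand), and a match describes the letters only.
Ccl8: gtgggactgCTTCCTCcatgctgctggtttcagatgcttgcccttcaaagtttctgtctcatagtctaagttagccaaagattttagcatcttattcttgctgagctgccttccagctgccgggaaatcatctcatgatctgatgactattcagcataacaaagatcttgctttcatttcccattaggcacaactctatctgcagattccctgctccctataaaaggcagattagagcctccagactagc
Ccl9: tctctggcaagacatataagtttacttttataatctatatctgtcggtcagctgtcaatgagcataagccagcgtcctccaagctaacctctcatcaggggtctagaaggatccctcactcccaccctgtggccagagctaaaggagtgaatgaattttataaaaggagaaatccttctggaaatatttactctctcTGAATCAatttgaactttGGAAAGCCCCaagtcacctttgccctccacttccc
Ccl12: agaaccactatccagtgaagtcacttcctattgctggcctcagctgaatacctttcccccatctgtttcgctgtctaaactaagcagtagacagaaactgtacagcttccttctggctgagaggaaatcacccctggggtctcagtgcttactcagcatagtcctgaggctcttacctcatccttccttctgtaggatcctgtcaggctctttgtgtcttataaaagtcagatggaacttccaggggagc

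Lower calls made up 3.76% of all genes tested at 2M, 4.72% at 4M and 6.03% at 6M, beside the shares of higher calls, 12.0%, 15.6% and 18.8%. In the lists that follow, too, a gene near 0 counts in BALB/c that passed the filter through NOD.H-2b had to differ, so that counts and medians are given as a description. Among 13 other CC chemokine genes, the strain test called 3 higher and 1 lower of 7 tested at 2M, 4 higher and 1 lower of 8 tested at 4M and 4 higher and 2 lower of 8 at 6M, with median log2 fold changes of 0.22, 1.42 and 2.15 at the 3 ages. These medians did not change with genes at 0 counts in BALB/c set to a floor of 3 counts over the group. Ccl20, a ligand of Ccr6, had 136 counts over the NOD.H-2b mice of 2M against 0 in controls, 39.3-fold higher with controls set to that floor. Mean levels of Ccl20 were 1.58 against 0.0457 CPM at 4M and 2.52 against 0.0518 CPM at 6M. Ccl19, a ligand of Ccr7, had 54 counts over the NOD.H-2b mice of 6M against 0 in controls, 17.3-fold higher by the same floor, and at 4M 54 against 2. Ccl22, a ligand of Ccr4, had log2 fold changes of 4.03 ± 0.48 (adjusted p = 6.97e-05) at 2M, 3.60 ± 0.39 (adjusted p = 0.000107) at 4M and 4.07 ± 0.32 (adjusted p = 4.3e-06) at 6M in edgeR. The lower call was Ccl24, an eosinophil-attracting ligand (-1.87 ± 0.38, adjusted p = 0.00228 at 2M, -2.61 ± 0.47, adjusted p = 0.00152 at 4M and -4.40 ± 0.42, adjusted p = 1.61e-05 at 6M), named after its values were seen. Ccl28, the gene of this list with the most counts, was called lower at 6M only (-1.12 ± 0.14, adjusted p = 0.000122), with a strain by age term from 2M to 6M of -0.83 ± 0.23 (adjusted p = 0.0263), and Ccl21a had no count in any mouse. Among 13 other CC receptor genes, 5 higher and 0 lower of 10 tested at 2M, 8 higher and 1 lower of 12 tested at 4M and 7 higher and 0 lower of 12 at 6M were called, with medians of 2.10, 2.12 and 2.33. Ccr1, which binds Ccl3, Ccl6 and Ccl9, had mean levels of 0.0124 against 0.461 CPM at 2M, 0.0407 against 1.16 at 4M and 0.0692 against 1.27 at 6M in controls and NOD.H-2b mice. Without BALB/c 6M replicate 1, the log2 fold change of Ccr1 at 6M moved from 3.89 to 5.72 (adjusted p = 0.000262). Ccr8, the receptor of Ccl8 in mice, had 0 against 0.244 CPM at 2M, 0.0389 against 0.801 at 4M and 0.0214 against 1.01 at 6M. Among the receptor genes called higher at 2M were Ccr6, Ccr7 and Ccr10, and the lower call at 4M was Ackr4 (-1.69 ± 0.48, adjusted p = 0.0167), named after its values were seen. Ccr6 and Ccr7, receptors of Ccl20 and Ccl19, had log2 fold changes of 6.67 ± 0.34 (adjusted p = 6.93e-07) and 5.47 ± 0.26 (adjusted p = 4.25e-07) at 6M in edgeR.

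Of 21 genes that carry the signal of chemokine receptors, 13 higher and 1 lower of 21 tested at 2M, 14 higher and 1 lower of 21 tested at 4M and 16 higher and 0 lower of 21 at 6M were called, with medians of 1.60, 2.47 and 2.90. Rac2, a GTPase of leukocyte migration, had 3.79 ± 0.46 (adjusted p = 0.00177) at 2M, 3.87 ± 0.49 (adjusted p = 0.00263) at 4M and 4.89 ± 0.32 (adjusted p = 3.17e-05) at 6M in edgeR, and Fgr 3.53 ± 0.40 (adjusted p = 0.000264), 3.32 ± 0.26 (adjusted p = 1.88e-05) and 3.77 ± 0.27 (adjusted p = 4.97e-06). Rgs1, which limits G protein signaling, had mean levels of 0.0187, 0.215 and 0.177 CPM in controls and 1.90, 2.67 and 3.99 CPM in NOD.H-2b mice, and Gnb1 had the most counts of the list. Of 19 genes known to induce CC chemokines or to limit their induction, 8 higher and 0 lower of 13 tested at 2M, 8 higher and 0 lower of 13 tested at 4M and 10 higher and 0 lower of 14 at 6M were called, with medians of 1.11, 1.30 and 1.79. Tnf, a cytokine that induces Ccl2 in many cells, had 4.59 ± 0.36 (adjusted p = 2.42e-06), 3.33 ± 0.48 (adjusted p = 0.000831) and 4.18 ± 0.35 (adjusted p = 7.14e-06) at the 3 ages, and Socs1, a feedback inhibitor of interferon signaling, had 2.66 ± 0.40 (adjusted p = 0.000286), 2.73 ± 0.42 (adjusted p = 0.000826) and 3.79 ± 0.37 (adjusted p = 2.13e-05). Ifng had 0, 1 and 1 counts over the BALB/c mice and 9, 36 and 66 over the NOD.H-2b mice at 2M, 4M and 6M, and Il17a had none, while Nfkb1 had the most counts of the list.

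The 9 genes together summed to 14.9, 15.2 and 13.8 CPM at 2M, 19.9, 29.7 and 28.3 at 4M and 22.6, 26.4 and 23.7 at 6M in BALB/c, and to 88.1, 91.0 and 89.7 CPM at 2M, 93.7, 102 and 97.5 at 4M and 108, 88.3 and 88.9 at 6M in NOD.H-2b. Markers of macrophages, dendritic cells, T and NK cells and B cells were also called higher in NOD.H-2b, while at 4M and 6M more eosinophil and mast cell markers were called lower than higher, and the part of these cells in the differences of the 9 genes was not tested. The 12 macrophage markers summed to 88.9, 96.8 and 66.7 CPM at 2M, 109, 113 and 176 at 4M and 101, 129 and 114 at 6M in BALB/c, and to 251, 274 and 269 CPM at 2M, 400.1, 376 and 389 at 4M and 494, 401 and 375 at 6M in NOD.H-2b. Of them, 10 of 12 at 2M, 9 of 12 at 4M and 10 of 12 at 6M were called higher, with medians of 1.98, 1.83 and 2.07, Lyz2 had the most counts, and Cd163 was called lower at 6M. The 6 monocyte markers summed to 19.4, 20.5 and 15.0 CPM at 2M, 21.4, 19.3 and 25.3 at 4M and 20.0, 22.0 and 20.1 at 6M in BALB/c, and to 44.2, 49.6 and 43.6 CPM at 2M, 79.0, 64.3 and 59.9 at 4M and 90.1, 65.9 and 71.8 at 6M in NOD.H-2b. Called higher were 4 of 5 at 2M, 2 of 5 at 4M and 2 of 5 at 6M (among them Plac8 at each age, and Ly6c2 and F13a1 at 2M), with medians of 2.43, 0.79 and 0.72, F13a1 had the most counts, and Chil3 had no count in any BALB/c mouse. The 7 neutrophil markers summed to 0.439, 0.503 and 0.600 CPM at 2M, 0.903, 1.20 and 1.66 at 4M and 0.783, 1.19 and 1.45 at 6M in BALB/c, and to 1.89, 3.01 and 3.27 CPM at 2M, 6.01, 6.07 and 5.93 at 4M and 6.86, 5.28 and 4.54 at 6M in NOD.H-2b. Of these, Csf3r, which had the most counts, was the only gene that passed edgeR's filter and was called higher at each age, where DESeq2 called 1, 4 and 1, while S100a8, S100a9, Retnlg, Mmp8 and Cxcr2 had no count in BALB/c at 2M.

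**Figure D4:**
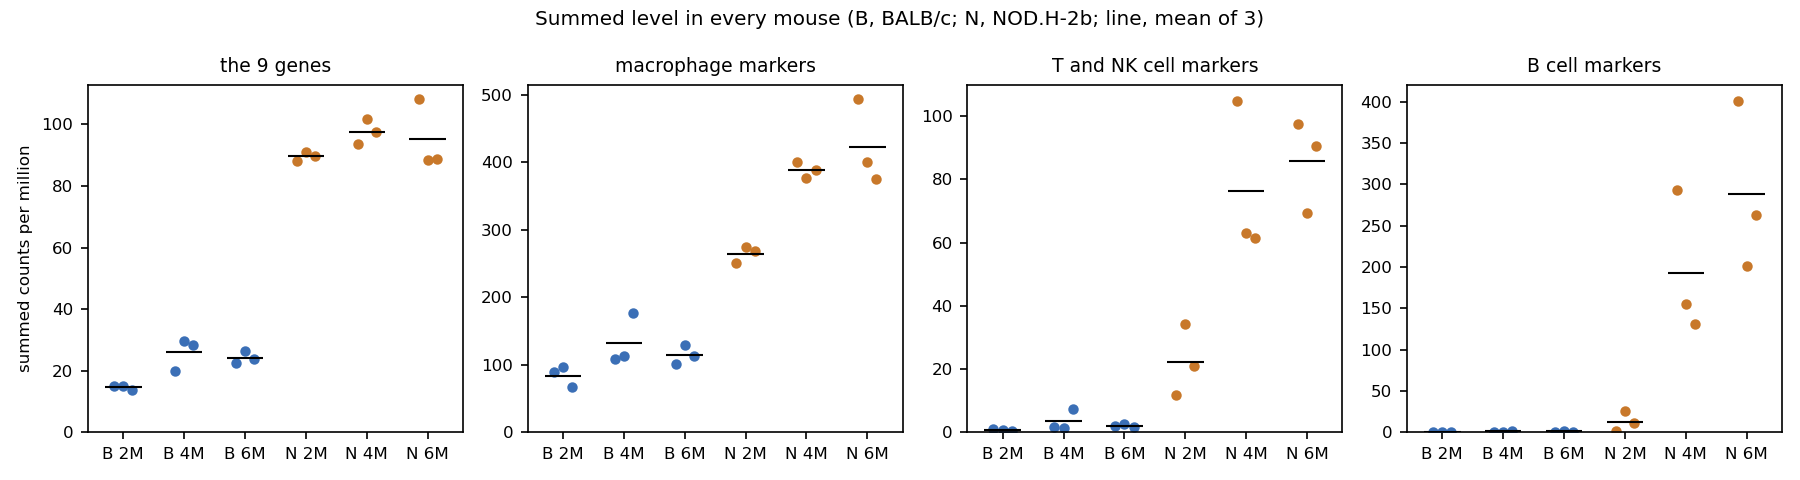
Summed CPM (vertical axis, linear from 0) in every mouse, by strain (B, BALB/c; N, NOD.H-2b) and age, of the 9 genes and of macrophage, T and NK cell, and B cell markers, with a line at the mean of 3 mice. The 9 genes lie between 88.1 and 108 CPM in NOD.H-2b at all ages and between 13.8 and 29.7 CPM in BALB/c, a sum to which Ccl9, Ccl8 and Ccr2 contribute most, and from 2M to 4M in NOD.H-2b the mean of Ccl8 went from 17.4 to 33.6 CPM and that of Ccl9 from 46.2 to 30.9 CPM.

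The 6 dendritic cell markers summed to 5.81, 5.46 and 5.20 CPM at 2M, 7.17, 6.78 and 11.5 at 4M and 5.83, 6.54 and 6.13 at 6M in BALB/c, and to 9.45, 23.0 and 17.1 CPM at 2M, 34.8, 19.7 and 20.3 at 4M and 33.2, 23.8 and 29.4 at 6M in NOD.H-2b. Called higher were 3 of 6 at 2M, 4 of 6 at 4M and 5 of 6 at 6M, among them Flt3 and Xcr1 at each age, with medians of 2.27, 1.91 and 2.69 and the most counts on Flt3, and DESeq2 called 4, 5 and 5. The 10 T and NK cell markers summed to 1.13, 0.664 and 0.494 CPM at 2M, 1.77, 1.30 and 7.29 at 4M and 2.08, 2.60 and 1.73 at 6M in BALB/c, and to 11.9, 34.3 and 21.0 CPM at 2M, 105, 63.1 and 61.4 at 4M and 97.7, 69.3 and 90.5 at 6M in NOD.H-2b. All 10 were called higher at each age, with medians of 5.23, 4.55 and 5.60 and the most counts on Cd4. Of them, 2 had enough counts to be tested within BALB/c from 2M to 4M, 3 from 2M to 6M and 6 from 4M to 6M. Markers not tested in a comparison did not pass the filter on BALB/c counts of those ages. A marker that passed through NOD.H-2b alone had to differ, so that these calls and medians are a description and no support. The 6 B cell markers summed to 0.0955, 0.305 and 0.0353 CPM at 2M, 0.848, 0.995 and 2.09 at 4M and 0.837, 1.73 and 0.771 at 6M in BALB/c, and to 1.46, 26.1 and 11.0 CPM at 2M, 294, 155 and 132 at 4M and 401, 202 and 263 at 6M in NOD.H-2b. Called higher were 3 of 3 at 2M, 6 of 6 at 4M and 6 of 6 at 6M, with medians of 6.47, 8.51 and 9.56 and the most counts on Cd22, and in BALB/c Pax5 had 3, 2 and 3 counts over the mice of each age. DESeq2 called 6 of the B cell markers at each age. Of them, 2 had enough counts to be tested within BALB/c from 2M to 4M, 1 from 2M to 6M and 2 from 4M to 6M. For the markers not tested there the same limit holds.

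The 7 eosinophil and mast cell markers summed to 3.23, 3.34 and 2.26 CPM at 2M, 7.32, 5.53 and 6.16 at 4M and 7.16, 9.78 and 13.4 at 6M in BALB/c, and to 3.38, 3.56 and 2.95 CPM at 2M, 3.77, 6.30 and 5.33 at 4M and 8.84, 7.49 and 7.61 at 6M in NOD.H-2b. Of 5 tested, 1 (Prg2) was called higher at each age and 0, 4 and 3 lower at 2M, 4M and 6M (Mcpt4, Cpa3 and Cma1, and at 4M Tpsb2), with medians of -0.11, -1.35 and -1.18, the most counts on Mcpt4 and no count of Epx in BALB/c at 4M or 6M. The 6 fibroblast markers summed to 632, 604 and 484 CPM at 2M, 367, 446 and 561 at 4M and 326, 419 and 376 at 6M in BALB/c, and to 805, 718 and 751 CPM at 2M, 367, 379 and 318 at 4M and 381, 377 and 309.6 at 6M in NOD.H-2b. Medians were 0.47, -0.36 and 0.02, and with the most counts on Col3a1, 0 of 6 were called at each age by edgeR, while 6, 2 and 1 had an unadjusted p under 0.05, and DESeq2 called 0 at each age, with 5, 4 and 1 at an unadjusted p under 0.05. The 5 endothelial markers summed to 41.9, 43.5 and 48.1 CPM at 2M, 39.4, 36.1 and 36.4 at 4M and 33.3, 30.8 and 29.2 at 6M in BALB/c, and to 38.9, 39.6 and 41.5 CPM at 2M, 62.6, 51.4 and 46.4 at 4M and 69.1, 53.3 and 57.0 at 6M in NOD.H-2b. Medians were -0.00, -0.24 and 0.05, and Pecam1, which had the most counts, was the 1 called of 5 at 4M and 6M, and at 2M 0 of 5 were called by edgeR and by DESeq2, with 2 and 2 at an unadjusted p under 0.05. The 9 lacrimal epithelium markers summed to 71089, 73612 and 75272 CPM at 2M, 66859, 70683 and 63413 at 4M and 76993, 72304 and 84439.6 at 6M in BALB/c, and to 62094, 65419 and 64249 CPM at 2M, 56768, 67321 and 65203 at 4M and 45611, 55279.9 and 55956 at 6M in NOD.H-2b. The strains did not overlap at 2M and 6M. Between strains, 0 of the 9 were called at 2M by edgeR and by DESeq2, with 5 and 5 at an unadjusted p under 0.05, and 1 (Scgb2b17) was called higher at 4M and 6M, with medians of 0.40, -0.08 and -0.35. Of the adjacent tissue markers, 0 of 5 were called higher and 1 lower at 2M, 1 and 2 of 5 at 4M, and 0 and 2 of 3 at 6M (lower Ckm at each age and Amy1 at 4M and 6M, higher Mylpf at 4M), with medians of -0.38, -0.43 and -1.48, and DESeq2 called 1, 2 and 3.

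Marker genes were also tested for the age terms with edgeR, and their part in the age differences of Ccl6, Ccl9 and the other genes was not tested. From 2M to 4M, the strain by age term was called lower for 2 of 6 fibroblast markers (Dcn and Lum) and 3 of 9 epithelium markers (Epcam, Cdh1 and Krt18) and higher for 1 of 5 endothelial markers (Pecam1), where 0.978% of all genes were called lower and 0.696% higher. In either direction, DESeq2 called 5 fibroblast, 3 epithelium, 1 endothelial, 1 monocyte, and 1 eosinophil and mast cell markers. From 2M to 6M it was called lower for 6 of 9 epithelium, 2 of 5 eosinophil and mast cell (Mcpt4 and Cpa3), 1 of 12 macrophage (Cd163) and 1 of 5 monocyte markers (Ly6c2), and higher for 3 of 5 endothelial (Pecam1, Cdh5 and Kdr) and 1 of 6 dendritic cell markers (Zbtb46), where 9.09% of all genes were called lower and 7.04% higher. By DESeq2 the numbers were 7 epithelium, 2 eosinophil and mast cell, 2 macrophage, 3 monocyte, 3 endothelial, 1 dendritic cell, 1 fibroblast and 1 B cell markers. Within NOD.H-2b, 3 of 6 fibroblast markers were called lower from 2M to 4M and 3 of 6 from 2M to 6M (Col1a1, Col1a2 and Col3a1), against 0.625% and 1.55% of all genes. Between 2M and 4M, those called higher in NOD.H-2b were 3 of 10 T and NK cell, 2 of 6 B cell, 2 of 5 monocyte, 1 of 12 macrophage, 1 of 1 neutrophil, 1 of 5 eosinophil and mast cell, and 1 of 5 endothelial markers, against 5.97% of all genes. DESeq2 called more of them in these mice, 8 T and NK cell, 6 B cell and 2 neutrophil markers, and the same number of the other lists. From 2M to 6M, by edgeR and in the same numbers by DESeq2, these were 8 of 10 T and NK cell, 6 of 6 B cell, 2 of 5 monocyte, 1 of 12 macrophage, 1 of 5 eosinophil and mast cell, and 1 of 5 endothelial markers, against 10.9%. In BALB/c, 2 of 12 macrophage, 2 of 2 B cell, 1 of 5 dendritic cell, 1 of 4 monocyte, 1 of 1 neutrophil, and 1 of 4 eosinophil and mast cell markers were called higher from 2M to 4M, against 2.07%. DESeq2 called 3 macrophage, 3 B cell, 2 dendritic cell, 2 monocyte, 1 neutrophil, 3 eosinophil and mast cell, and 2 T and NK cell markers there. From 2M to 6M in BALB/c, 5 of 5 eosinophil and mast cell, 1 of 1 B cell, 1 of 3 T and NK cell, 1 of 12 macrophage and 1 of 4 monocyte markers were called higher, against 1.57%, and 1 of 6 fibroblast markers (Col1a1) lower, against 0.115%, where DESeq2 called 2 B cell markers and the same number of the other lists.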

How the data were processed

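Single LGs of male mice were sequenced by the authors as ribosomal RNA-depleted, paired-end libraries, trimmed with cutadapt, aligned to GRCm38 with STAR and counted per gene with HTSeq, per the labels and the study's methods. The deposited table holds these raw counts for 54232 genes in 18 mice, and the annotation release and the strand setting of the counting are not given in the sources used here. Without a known strand setting, reads of a gene and of an overlapping gene on the other strand cannot be told apart.

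From the counts, edgeR 4.0.16 (R 4.3.3) was run with TMM scaling, its filter on low counts and robust quasi-likelihood fits, and p-values were adjusted by Benjamini-Hochberg over all genes tested. The standard error of a log2 fold change was derived from the test, as its absolute value divided by the square root of the F statistic. The strain difference at an age, and the age differences of a strain, came from fits of the 6 mice concerned; strain by age terms and the mean over ages were estimated in 1 fit of all 18. The procedure was tested on simulated data. Alternatives were the size factors or the Wald test of DESeq2 1.42.0, no filter, 1 fit of all mice, a replicate block and leaving out each mouse. Positions and exon lengths came from GENCODE (GRCm38), promoters from RefSeq (GRCm38.p6). The interval of a ratio of counts covers counting error only. Where a group had 0 counts, a floor of 3 counts over the group was used. A fold change from this floor covers neither the counting error of the other group nor the spread between mice.

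The members and lists were chosen with earlier results of these data known. Named genes were all members, the 3 genes of each pathway list with the largest absolute log2 fold change over all ages, Ccl5, Ccr1 and Ccr8, the gene of each marker list with the most counts, and the 3 genes most alike to each member among those whose average log2 CPM (prior count 2) was 1 or more. Some genes that these rules take, or that lists hold, are not reported here. Other genes named are neighbors on the chromosome or were chosen after their values were seen. Lists were other CC chemokines and receptors, receptor signaling, inducers, and markers of macrophages, monocytes, neutrophils, eosinophils and mast cells, dendritic, T and NK, B, endothelial and lacrimal epithelial cells, fibroblasts and adjacent tissue.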

Additional observations from a re-analysis of the deposited data

Results flagged for a closer look

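The strain difference of 2 of the 9 genes changed with age in the strain by age test of edgeR's fit of all 18 mice, where 1.67% of all genes were called from 2M to 4M and 16.1% from 2M to 6M, a share that 2 of 9 does not stand out from. Ccl6 differed less between strains at 4M than at 2M, with a term on the log2 scale of -1.55 (adjusted p = 0.00634), and mean levels of 0.800 and 4.27 CPM at 2M (BALB/c first) and 2.46 and 4.49 CPM at 4M. At 6M its difference was also smaller than at 2M, with a term of -0.81 (adjusted p = 0.0448), with 1.77 and 5.38 CPM, and this call was lost in 9 of 18 fits without 1 mouse, with no filter on low counts (adjusted p = 0.0633) and with DESeq2 size factors (adjusted p = 0.051). Ccl9 differed less at 4M than at 2M, with a term of -1.02 (adjusted p = 0.0387), with 9.42 and 46.2 CPM at 2M and 12.8 and 30.9 CPM at 4M, and this call was lost in 7 of 18 fits without 1 mouse and with no filter (adjusted p = 0.0558). Between 2M and 6M the term of Ccl9 was -1.25 (adjusted p = 0.00367), with 14.6 and 30.0 CPM at 6M.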

How the results depend on the processing

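Of the single-gene results, 94 log2 fold changes were followed across the alternatives, and Ccl8 in BALB/c from 2M to 4M was among those not followed. Their direction and call (adjusted p and 2-fold together, and for strain by age the adjusted p) were kept in 1449 cases, the call lost in 42 and gained in 13, and the direction turned in 3. In 16 of the 1449, the adjusted p alone crossed 0.05, for Ccl2 and Ccl9 between ages, as given with their values, and for Ccl11 at 4M (0.0501 without BALB/c 4M replicate 3) and 6M (0.0455 with no filter, 0.0108 with 1 fit of all 18 mice and 0.00821 without BALB/c 6M replicate 1). With DESeq2 size factors, the 1 alternative run for levels, the mean CPM of the 9 genes moved by less than 1 SD in 54 of 54 group means. The 3 that turned were Col3a1 over all ages, -0.0425 (adjusted p = 0.738) with all mice, which became 0.0133 (adjusted p = 0.922) without BALB/c 2M replicate 1, 0.0544 (adjusted p = 0.589) without BALB/c 4M replicate 3 and 0.0185 (adjusted p = 0.89) without BALB/c 6M replicate 2, within a range of -0.0815 to 0.0544 without 1 mouse. The cause was not tested.

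The number of the 9 genes called between strains was the same with DESeq2 size factors, DESeq2's Wald test, no filter, the replicate block and 1 fit of all 18 mice. Without 1 mouse, it was 9 to 9 at 2M, 8 to 9 at 4M, 8 to 9 at 6M and 9 to 9 over all ages; within BALB/c 1 to 3 from 2M to 4M, 0 to 0 from 4M to 6M and 0 to 1 from 2M to 6M; within NOD.H-2b 0 to 2, 0 to 0 and 0 to 1; and for strain by age 1 to 2 from 2M to 4M and 1 to 2 from 2M to 6M. From 2M to 4M, BALB/c had 3 with 1 fit of all 18 mice and 3 by DESeq2, each with Ccl8 added. With no filter, strain by age had 1 of 9 from 2M to 4M (Ccl9 lost, adjusted p = 0.0558) and 1 from 2M to 6M (Ccl6 lost, adjusted p = 0.0633), and with DESeq2 size factors 1 from 2M to 6M (Ccl6 lost, adjusted p = 0.051).

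Of all genes, the number called without 1 mouse was 2576 to 2919 (2717 with all mice) at 2M, 3385 to 3732 (3604 with all mice) at 4M, 4127 to 4685 (4409 with all mice) at 6M and 4383 to 4604 (4362 with all mice) over all ages. Within BALB/c it was 245 to 435 (395 with all mice), 2 to 27 (6 with all mice) and 179 to 473 (279 with all mice) for 2M to 4M, 4M to 6M and 2M to 6M, within NOD.H-2b 290 to 1254 (1172 with all mice), 0 to 97 (1 with all mice) and 1621 to 2506 (2244 with all mice), and for strain by age 114 to 487 (320 with all mice) and 1558 to 3608 (3083 with all mice). With no filter, BALB/c had 663 genes from 2M to 4M, 106 from 4M to 6M and 485 from 2M to 6M, and NOD.H-2b 16 from 4M to 6M. With 1 fit of all 18 mice, 13 genes were called between 4M and 6M for BALB/c and 55 for NOD.H-2b, by DESeq2 14 and 54, and 967 for strain by age from 2M to 4M. The causes were not tested.

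Mice with the same replicate number did not deviate together, with r of -0.056 to 0.103 over 9 pairs, 5 of them negative, and 3 of the 9 correlating best with their own number. With the replicate block, NOD.H-2b from 2M to 4M had 0 of 9 genes called (Ccl2 adjusted p = 0.139, Ccl12 adjusted p = 0.0838) and 157 genes in all, with 54 from 4M to 6M, and strain by age had 1 of 9 from 2M to 4M (Ccl9 lost, adjusted p = 0.0523) and 1 from 2M to 6M (Ccl6 lost, adjusted p = 0.055). It changed no other call of the 9 genes, while the adjusted p of Ccl2 from 2M to 6M in NOD.H-2b was 0.0939.

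With an offset of 0.1 CPM before the logarithm, the 3 most alike genes of each member, 27 in all with repeats, kept 21 in any order. In BALB/c, Ccl3 and Ccl4 rest on 12 counts per mouse or fewer at each age, and Ccl3 had the largest standard error of the 9 at each age. Scaling with DESeq2 size factors moved the median of all genes by less than 0.1 in each comparison.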
